A study of Mus musculus with 87 samples.

Results

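The retinoic acid genes described here are 9 of the 26171 genes in the RNA-seq tables of the series. They were listed by name: Cyp26a1, Cyp26b1, Dhrs3, Rara, Rarb, Rarg, Crabp1, Crabp2 and Stra6. All 9 were found by row name in all 13 comparison tables. The rule that lists them uses no measured value, but the list was made with earlier results of these data known.

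Retinoic acid is made in cells from vitamin A. STRA6 is a membrane receptor that takes up retinol from its carrier in blood, and DHRS3 turns retinaldehyde back into retinol, away from retinoic acid. CRABP1 and CRABP2 bind retinoic acid in the cytosol, and CRABP2 hands it to nuclear receptors. The receptors RARα, RARβ and RARγ (Rara, Rarb, Rarg) sit on DNA as partners of RXR proteins and switch target genes on when retinoic acid binds. CYP26A1 and CYP26B1 oxidise retinoic acid for removal. Cyp26a1, Rarb, Dhrs3 and Stra6 are themselves known targets of the hormone.

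The study concerned Suz12, a core subunit of Polycomb repressive complex 2 (PRC2), which places methyl groups on lysine 27 of histone H3 (H3K27me3) at silent developmental genes. Suz12 exon 4 is alternatively spliced, and the mouse embryonic stem cells (ESC) of line 129-B13 carried altered forms of the gene. The groups were wild type (WT), WT with exon 4 always included (CSex4), a deletion of exon 4 (Deltaex4), a full Suz12 knock-out (KO), and the knock-out with the long isoform put back (KO-L) or the short one (KO-S). In KO-L3D and KO-S3D the isoform put back, at the Rosa26 locus, carried what the labels call the 3D mutation. ESC grew in 20% serum with LIF, with no retinoic acid added per the labels. Neuronal precursors (NP) were made from the same cells as floating embryoid bodies that received retinoic acid on day 4 and were harvested on day 8. RNA was sequenced from 18 ESC libraries (WT 3, KO 3, and 2 in each of the other 6 groups) and 14 NP libraries (WT 4, and 2 in each of the remaining 5 groups). The labels do not say how many clones stand behind a genotype or whether replicates were separate cultures, so p-values measure the spread between these libraries, which may be technical. NP and ESC differ in retinoic acid, medium, days in culture and cell state at once, and these cannot be told apart.

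The deposited tables hold comparisons, not samples. The mean of scaled reads that the authors give for each gene has enough digits to recover the whole reads of every library, and per-library values below are those reads divided by 1 common set of size factors (scaled reads). Totals lay between 23570194 and 47201666 reads. Letters a to d name libraries within a group and are not the submitters' replicate numbers. Suz12 was checked first: the ESC KO libraries held 1315 to 2709 scaled reads against 4731 to 9244 in ESC WT, and the NP KO libraries 1076 to 1125 against 2795 to 5198 in NP WT. Pluripotency and neural marker genes moved with the labels, but they were not the only markers to move. The summed level of 6 pluripotency genes was 85584 to 105893 in ESC WT and 1455 to 9228 in NP WT, and that of 7 neural precursor genes was 2142 to 5765 and 10660 to 37383. That of 4 endoderm genes was 75.9 to 1863 and 1680 to 6101, and that of 2 trophoblast genes 52.6 to 110 and 217 to 631. For 4 mesoderm genes it was 131 to 222 and 110 to 424. Several libraries stood apart. NP WT a had a neural sum of 10660 where b, c and d had 31370 to 37383, and ESC WT c had an endoderm sum (Gata4, Gata6, Sox17, Foxa2) of 1863 against 75.9 and 80.6 in a and b. The ESC KO-S3D libraries differed widely from each other, and the 2 NP CSex4 libraries were closer to each other than any other pair of one group (chi-square per gene 2.45, against 10.8 to 141 in the other NP pairs and 13.4 to 118 in the ESC pairs), though still above sampling noise. In bulk RNA, fewer cells of a type and less RNA per cell cannot be told apart.

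Retinoic acid receptors with their RXR partner bind pairs of a short motif, classically 2 direct repeats 5 bases apart (DR5). RefSeq promoters (GRCm38.p6, 250 bases before to 50 after each start site) were matched by symbol for 8 of the 9 genes, with 17 start sites among them; Crabp2 had no entry. The motifs searched on both strands were AGGTCA plus the forms AGTTCA or GGGTCA or else GGTTCA. Of all 32851 promoters, 0.0974% held 2 of these spaced by 5 bases, and 2 of the 17 promoters did, those of Rarb and Cyp26a1. They are shown because both genes were among those with the widest gap between NP and ESC. The Rarb stretch is the 150 bases before the start site on the minus strand, chr14:16575477-16575626, and the Cyp26a1 stretch is 30 bases on the plus strand, chr19:37697770-37697799, in which the motif pair runs on the opposite strand. Capitals mark the 6-letter motifs of each pair. A further single motif in the Rarb stretch, GGGTCA at 83 to 78 bases before the start site, is left in lower case.
Rarb: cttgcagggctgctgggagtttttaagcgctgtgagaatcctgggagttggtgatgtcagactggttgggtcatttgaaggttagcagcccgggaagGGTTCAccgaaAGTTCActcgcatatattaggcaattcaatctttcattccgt
Cyp26a1: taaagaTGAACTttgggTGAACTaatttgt
The Rarb pair begins 53 bases before its start site and the Cyp26a1 pair 32 bases before. Spacings of 1 base (0.222% of all promoters) and 2 bases (0.268%) were found in none of the 17. A single motif is common: 43.7% of all promoters held one, and so did 6 of the 17, at Stra6, Rara, Rarb, Rarg and Cyp26a1. A match describes letters only.

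In wild-type cells, 8 of the 9 genes were higher in NP than in ESC and Rarg was lower. All 9 passed the test (limma on log2 of scaled reads plus 1, adjusted over 15641 genes), where 65% of all genes tested passed (34.6% higher and 30.4% lower in NP). The ranges of the ESC WT and NP WT libraries did not overlap for any of the 9, as for 64.8% of genes. The median log2 difference of the 9 was 6.02, against 0.07 over all genes tested.

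**Figure D1:**
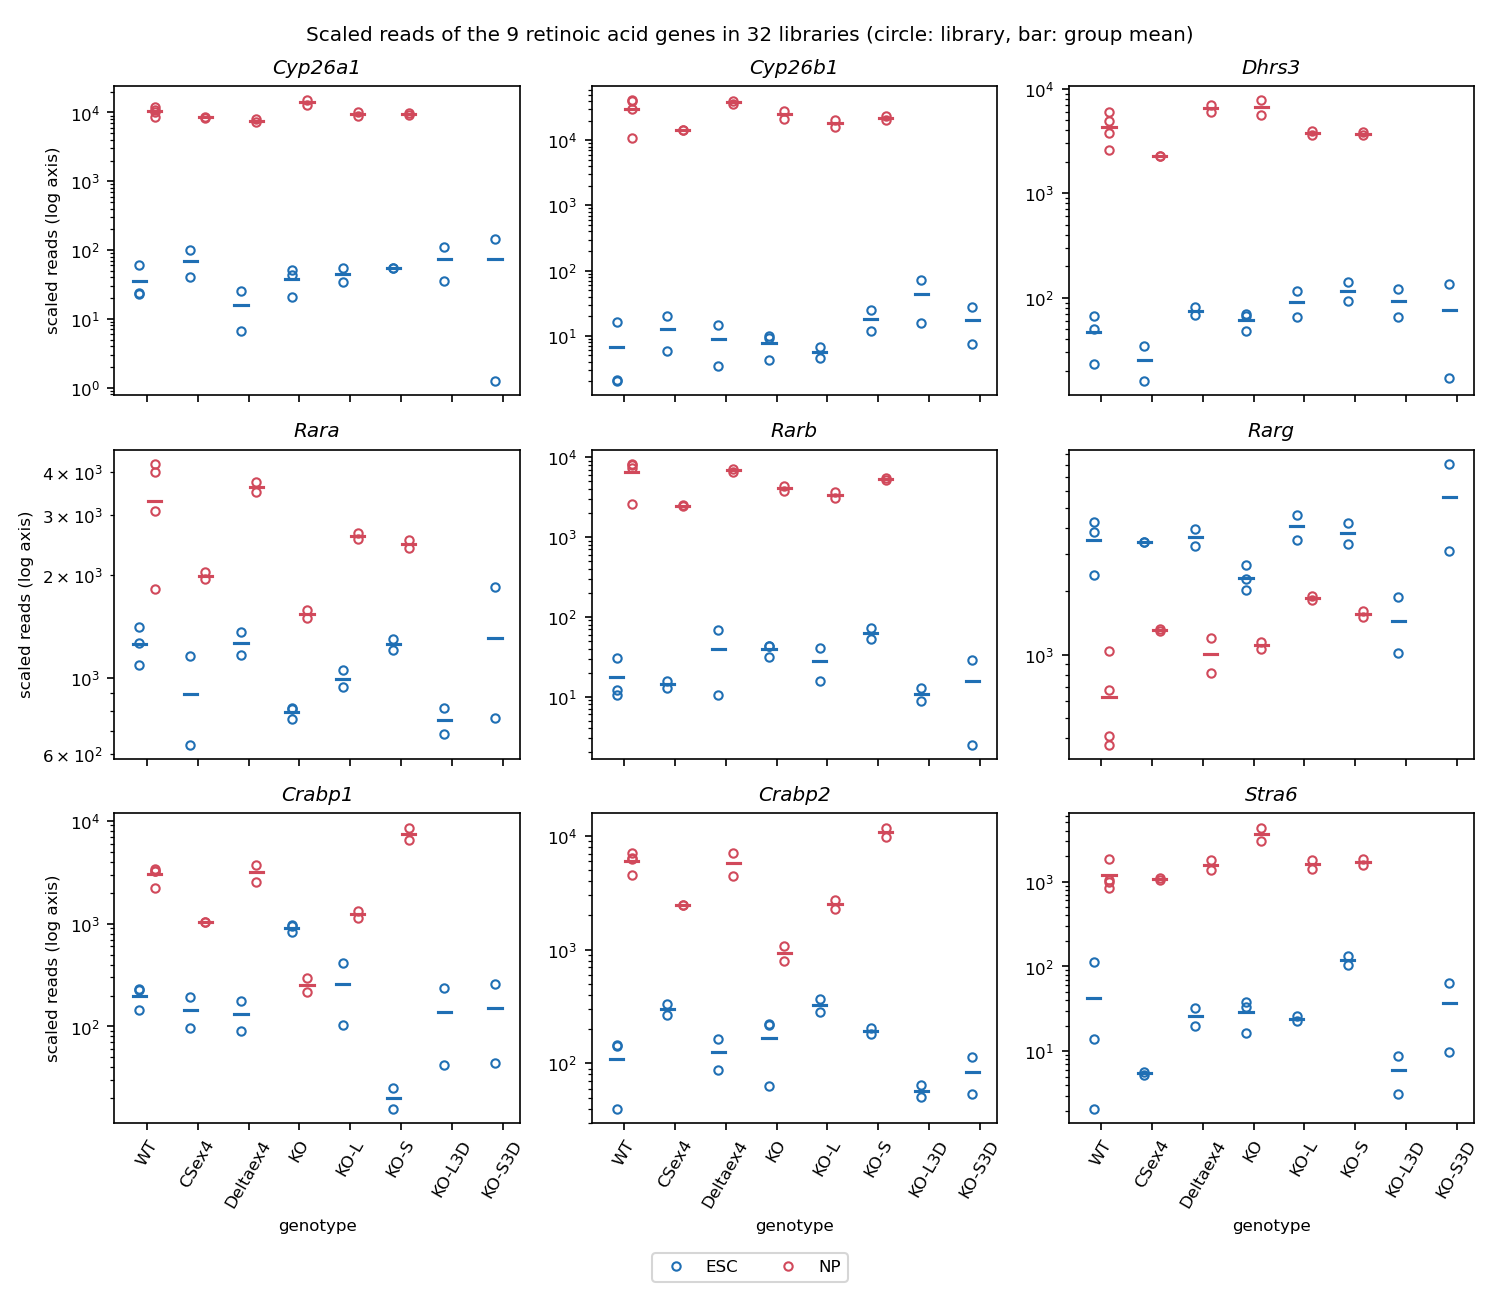
Scaled reads (log axis) of each gene in the 32 libraries, by genotype; circles are libraries, bars are group means, ESC in blue and NP in red. For 8 genes the NP WT circles lie above all ESC WT circles, for Rarg below, and for Crabp1 the order of ESC and NP is the other way round in KO.

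Among the enzymes, Cyp26a1 held 23.98, 23.03 and 59.64 scaled reads in ESC WT a to c and 11970, 8518, 10841 and 10196 in NP WT a to d. This is a 292-fold ratio of means and a limma log2 difference of 8.28 (SE 0.31, adjusted p = 1.75e-06). Its NP WT libraries were close to each other (SD 1442 around 10381, n = 4). Cyp26b1 was nearly silent in ESC WT, with 2, 2 and 14 reads before scaling, and held scaled reads of 10833, 40368, 29715 and 41378 in NP WT, a log2 difference of 12.28 (SE 0.69). Here NP WT a lay far below the other NP WT libraries. Dhrs3 went from 66.9, 50.3 and 23.4 scaled reads in ESC WT to 2584, 6014, 3813 and 4946 in NP WT, with a log2 difference of 6.56 (SE 0.39), and NP WT a was again the lowest.

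The 3 receptors behaved unlike each other. Rarb held 11.99, 10.47 and 30.40 scaled reads in ESC WT and 2605, 7917, 7268 and 8295 in NP WT, a log2 difference of 8.47 (SE 0.48, adjusted p = 8.29e-06). Rara was already well expressed in ESC WT, at 1268, 1407 and 1091 scaled reads, and rose to 1818, 4235, 3090 and 4020, a ratio of means of 2.62 and a log2 difference of 1.32 (SE 0.28, adjusted p = 0.00308). Rarg fell. It held 2389, 4270 and 3852 scaled reads in ESC WT and 1047, 677, 371 and 410 in NP WT, a log2 difference of -2.57 (SE 0.37, adjusted p = 0.00043). NP WT a was the lowest NP WT library in Rara and Rarb and the highest in Rarg.

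Of the carriers, Crabp1 went from 231, 224 and 145 scaled reads in ESC WT to 2208, 3279, 3427 and 3219 in NP WT, a log2 difference of 3.93 (SE 0.22). Crabp2 went from 144, 143 and 39.8 to 4579, 6259, 7083 and 6373, a log2 difference of 5.98 (SE 0.42). The retinol receptor Stra6 held 14.0, 2.09 and 112 scaled reads in ESC WT, where library c, the one with the high endoderm sum, was the highest. In NP WT it held 1872, 1035, 985 and 845, and its log2 difference was 6.02 (SE 1.01, adjusted p = 0.00098). NP WT a was the lowest in both carriers and the highest in Stra6. Without ESC WT c the log2 difference was 5.37 for Crabp2, 7.37 for Stra6 and 13.12 for Cyp26b1, and without ESC WT b that of Stra6 was 4.77. All 9 genes kept their call without any 1 library.

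The same contrast was taken within each of the 6 genotypes that both cultures have, in 1 limma fit (in WT all 9 genes passed again, with 70.7% of all genes). In CSex4, Deltaex4, KO-L and KO-S, the NP libraries lay above the ESC libraries in the same 8 genes and below in Rarg, and all 9 passed the test in each (50.1%, 61.6%, 50.8% and 55.2% of all genes passed; ranges were apart for 79.2%, 78.1%, 80% and 82.7% of genes). In KO, 7 genes were higher in NP and 2 lower, Rarg and Crabp1, and all 9 passed (61.5% of genes passed, ranges apart for 76.1%). Retinoic acid response genes such as Cyp26a1 (log2 difference 8.57, SE 0.46), Rarb (6.67, SE 0.58) and Dhrs3 (6.73, SE 0.39) were higher in NP than in ESC in the knock-out too.

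**Figure D2:**
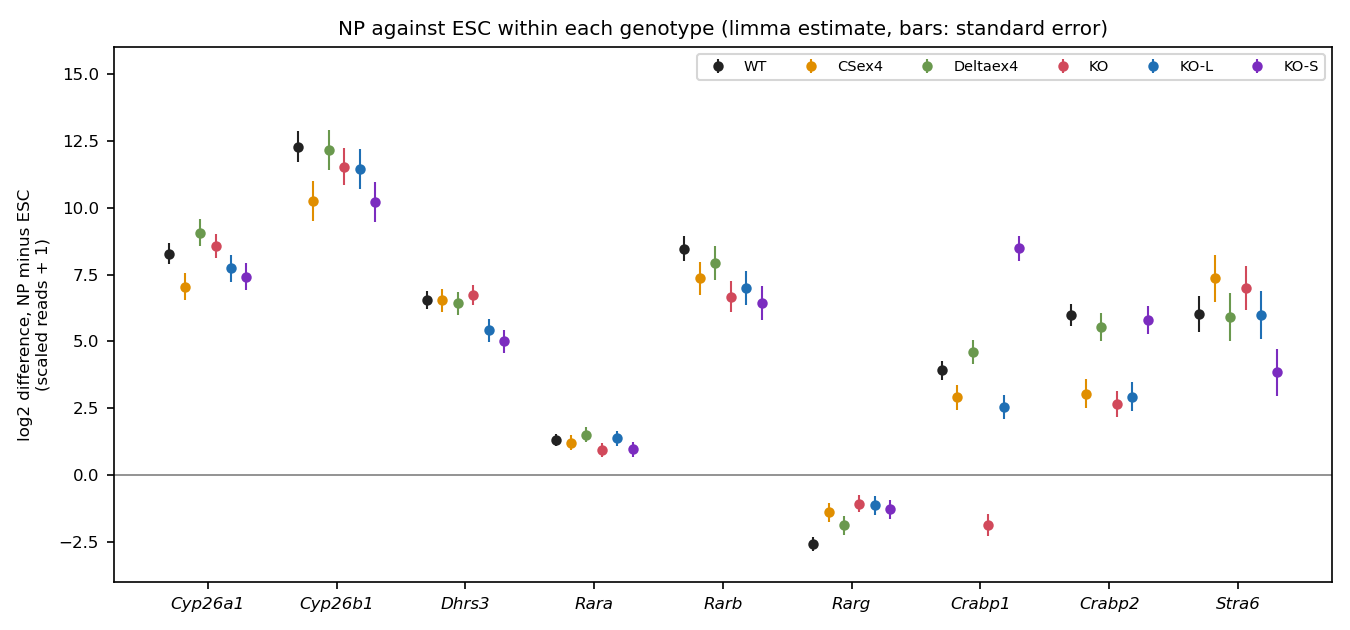
Limma estimate of the log2 difference between NP and ESC (scaled reads plus 1) for each gene within 6 genotypes, with standard errors. Crabp1 runs from -1.84 in KO to 8.48 in KO-S, while the 6 estimates of Rara stay between 0.96 and 1.52.

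Crabp1 was the gene that turned. In KO it held 965, 950 and 821 scaled reads in ESC and 295 and 217 in NP, a log2 difference of -1.84 (SE 0.42, adjusted p = 0.000745 by limma). In KO-S it held 25.0 and 15.8 in ESC and 6439 and 8590 in NP, a log2 difference of 8.48 (SE 0.46). The other genotypes lay between, from 2.56 in KO-L to 4.60 in Deltaex4. Crabp2 rose in every genotype, but its log2 difference came to 2.67 for KO, 2.94 for KO-L and 3.05 for CSex4, and to 5.54 in Deltaex4, 5.79 in KO-S and 5.98 in WT.

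The authors' own tests compare genotypes within a culture. Across the 13 deposited tables, 32 of the 117 values of the 9 genes had an adjusted p under 0.05 (a call), 6 of them in the 7 ESC tables and 26 in the 6 NP tables. Of all genes tested, 0% to 18.3% were called in an ESC table and 0.0809% to 34.5% in an NP table. The tables within a culture share WT or KO libraries and are not independent. Crabp1 and Crabp2 had 7 calls each, Rara, Rarg and Stra6 had 4 each, Cyp26a1, Rarb and Dhrs3 had 2 each, and Cyp26b1 had none.

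**Figure D3:**
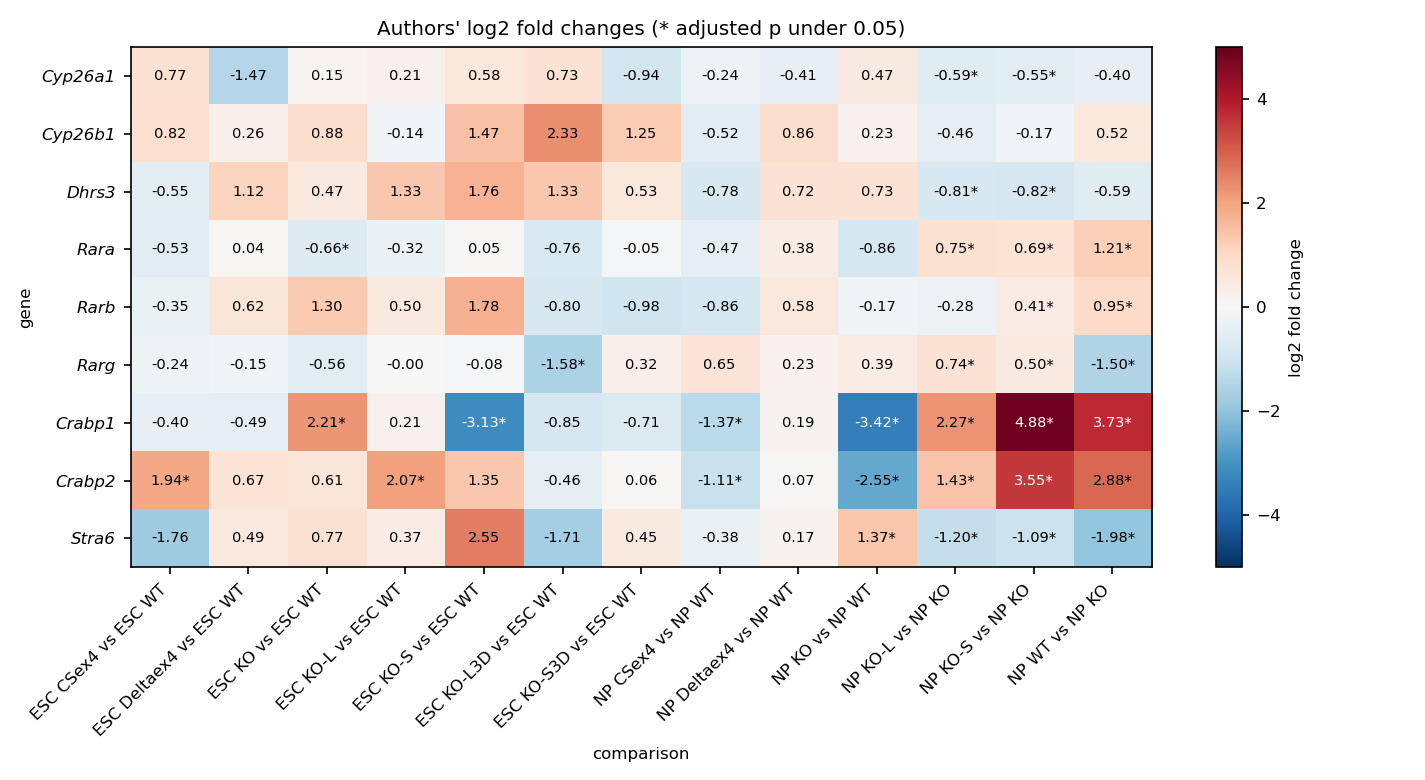
Log2 fold changes of the 9 genes in the authors' 13 deposited tables, with calls starred; red is higher in the first-named group. Calls gather in Crabp1 and Crabp2, whose values run from -3.42 to 4.88, and in the tables against NP KO.

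In ESC the enzymes and Rarb were low in every genotype and none was called by the authors. The calls concerned the carriers and the other 2 receptors. Over all 8 ESC groups the highest single library of Cyp26a1 held 145 scaled reads (KO-S3D a), of Cyp26b1 71.1 (KO-L3D a), of Rarb 72.3 (KO-S b) and of Dhrs3 141 (KO-S b). Some of these low levels were nonetheless apart from WT. Rarb held 52.1 and 72.3 scaled reads in KO-S and 31.4 to 43.6 in KO, above the WT libraries at 10.47 to 30.40, with ratios of means of 3.53 and 2.23. Limma without the replicate block called Rarb in KO-S (log2 1.90, adjusted p = 0.0462). Dhrs3 held 68.1 and 80.8 in Deltaex4 and 92.2 and 141 in KO-S, above WT at 23.4 to 66.9, with ratios of 1.59 and 2.49. The Deltaex4 library at 68.1 was close to the WT library at 66.9. The authors gave an adjusted p to 7 of the 9 genes in the CSex4 table and to 8 in the KO-L, KO-S and KO-S3D tables, Cyp26b1 being without one in each and Rarb also in CSex4. At such read numbers the authors' standard errors could be wide, for example 1.30 on the log2 scale for Cyp26b1 in the authors' deposited KO table. Differences of a few-fold in a gene with such an error could go uncalled.

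Crabp1 rose in ESC KO. In the authors' deposited table its log2 fold change was 2.21 (SE 0.25, adjusted p = 7.22e-16), and the 3 KO libraries (821 to 965 scaled reads) lay far above the 3 WT libraries (145 to 231). Rara fell, with 808, 757 and 814 scaled reads against 1091 to 1407 and a log2 fold change of -0.66 (SE 0.19, adjusted p = 0.00536) in the authors' deposited table. These were 2 of 9 genes called, in a table where 18.3% of genes were called. The median log2 fold change of the 9 in the authors' deposited table was 0.61, against 0.01 over all genes tested. The ESC KO libraries also had higher mesoderm sums (685 to 1218, against 131 to 222 in WT) and trophoblast sums (850 to 1314, against 52.6 to 110), whose part in these results was not tested.

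With an isoform put back, Crabp1 parted. In ESC KO-L it held 413 and 104 scaled reads, which overlap WT, and in KO-S 25.0 and 15.8, below every WT library. The authors' deposited tables give log2 fold changes against WT of 0.21 (SE 0.51, adjusted p = 0.99) for KO-L and -3.13 (SE 0.60, adjusted p = 1.15e-05) for KO-S. Crabp1 was the 1 gene of the 9 called in KO-S (7.91% of genes called), while the 1 called in KO-L was Crabp2 (2.23% of genes called). Crabp2 held 286 and 367 scaled reads in KO-L against 144, 143 and 39.8 in WT, with a log2 fold change of 2.07 (SE 0.59, adjusted p = 0.0264) in the authors' deposited table. ESC KO-S also had high endoderm sums (3113 to 4207, against 75.9 to 1863 in WT), and in it Stra6 held 104 and 132 and Dhrs3 92.2 and 141 scaled reads. Their log2 fold changes in the authors' deposited table, 2.55 (SE 0.99) and 1.76 (SE 0.67), missed the threshold (adjusted p = 0.0955 and 0.0845). By limma, 6 of the 9 were called in KO-S without WT c and 0 without KO-S b.

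In ESC CSex4, Crabp2 held 332 and 265 scaled reads, above all WT libraries, and was the 1 gene called (log2 fold change 1.94, SE 0.60, adjusted p = 0.047 in the authors' deposited table, where 2.41% of genes were called). Limma without the replicate block, a change of test and block at once, called none of the 14748 genes tested in CSex4 and none of the 14878 in KO-L. Its log2 differences of Crabp2 were 1.65 and 1.78 (adjusted p = 0.175 and 0.214). Without WT c, the lowest WT library, the log2 ratio of means was 1.05 in CSex4 and 1.18 in KO-L. In the 6 ESC tables other than KO, WT a has no partner in the authors' paired fit and adds nothing to the fold change. ESC Deltaex4 had no call among the 9, nor among all genes (0%), and no unadjusted p of the 9 under 0.05. Limma on the recovered reads called none of the 9 there either.

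In ESC KO-L3D, Rarg held 1018 and 1883 scaled reads against 2389, 4270 and 3852 in WT. Its log2 fold change of -1.58 (SE 0.34, adjusted p = 7.55e-05 in the authors' deposited table) was the 1 call of 9 (18.3% of genes called). By limma, 4 of the 9 were called there without WT c and 0 without WT b. KO-S3D had 0 of 9 called by the authors' DESeq2 test (3.23% of genes called), 0 with an unadjusted p under 0.05 and 0 by limma. Its libraries lay far apart, Rarg at 3101 and 8102 and Cyp26a1 at 145 and 1.23 scaled reads.

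In NP KO the 2 carriers were lower and Stra6 higher than in NP WT. Crabp1 held 295 and 217 scaled reads in NP KO against 2208 to 3427 in the 4 NP WT libraries, and Crabp2 held 792 and 1076 against 4579 to 7083. Against WT a and b, the authors' deposited table gives log2 fold changes of -3.42 (SE 0.35, adjusted p = 2.68e-20) and -2.55 (SE 0.36, adjusted p = 7.66e-11). Stra6 rose to 3037 and 4343 scaled reads from 845 to 1872, with 1.37 (SE 0.34, adjusted p = 0.000565) in the authors' deposited table. These were 3 of 9 genes called where 21.4% of genes were called, and the median of the 9 was 0.23 against -0.01 over all genes tested.

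The second table sets WT c and d against the same KO libraries, with the sign turned (WT over KO). There 6 of 9 genes were called, where 32.9% of genes were; limma also called 6, but 9 without KO a and 4 without WT d. In the authors' deposited table Crabp1 was at 3.73 (SE 0.28), Crabp2 at 2.88 (SE 0.28) and Stra6 at -1.98 (SE 0.29), the same directions as with WT a and b. Rara (1.21, SE 0.27, adjusted p = 6.03e-05), Rarb (0.95, SE 0.25, adjusted p = 0.00105) and Rarg (-1.50, SE 0.31, adjusted p = 1.11e-05) were called in that deposited table and not with WT a and b. For Rarg this rests on WT: KO held 1070 and 1153 scaled reads, WT a 1047, b 677, c 371 and d 410. For Rarb, KO held 3776 and 4373, above WT a at 2605 and below b to d at 7268 to 8295.

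Cyp26a1 was the highest in NP KO, at 13028 and 15138 scaled reads against 8518 to 11970 in NP WT, but neither deposited table called it (adjusted p = 0.338 and 0.228 in the authors' deposited tables). Cyp26b1 and Dhrs3 overlapped between NP KO and NP WT. The NP KO libraries also differed in cell type markers: the neural sum was 2713 to 3139 against 10660 to 37383 in NP WT, with 6 of 7 genes called lower against WT a and b, and the endoderm sum was 7700 to 14450 against 1680 to 6101, with 3 of 4 called higher. The part of these in the carriers and Stra6 was not tested. By limma none of the 9 was called when either KO library was left out, and the log2 ratio of means of Crabp1 lay between -3.68 and -3.11 without any 1 library.

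NP CSex4 had 2 of 9 genes called, both lower (5.53% of genes called, 1.45% lower). Crabp1 held 1034 and 1041 scaled reads and Crabp2 2477 and 2454, below all 4 NP WT libraries. In the authors' deposited table the log2 fold changes were -1.37 (SE 0.33, adjusted p = 0.00127) and -1.11 (SE 0.31, adjusted p = 0.0103). Limma without the pairing called no gene of all 15921 tested (adjusted p = 0.0998 and 0.0992 for these 2). The CSex4 libraries had a pluripotency sum of 31170 to 31792, against 1455 to 9228 in NP WT, with 6 of 6 genes called higher, and their neural sum of 10464 to 10471 was near that of WT a. Cyp26b1 (14560 and 14433 scaled reads) and Rara (1945 and 2040) were likewise near WT a and below b to d. Rarb (2424 and 2541) and Dhrs3 (2275 and 2272) lay below all 4 NP WT libraries, the lowest being at 2605 and 2584. Rarg (1301 and 1321) lay above all 4, the highest being at 1047. The authors called none of these genes, and the share of all genes with ranges apart was not computed here. The part of cell type in this was not tested. NP Deltaex4 had 0 of 9 called by the authors (0.0809% of genes called), 0 with an unadjusted p under 0.05 and 0 by limma, and 8 of its 9 ranges overlapped NP WT (ranges were apart for 11.5% of genes). The exception was Cyp26a1, at 7995 and 7262 scaled reads, below all NP WT libraries.

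Putting either isoform back into NP KO moved most of the 9 genes, and the carriers moved further with the short one. Against KO, 7 of 9 genes were called for KO-L (24.7% of genes called) and 8 of 9 for KO-S (34.5% called). Both tables share the KO libraries. Crabp1 rose from 295 and 217 scaled reads in KO to 1139 and 1318 with the long isoform and to 6439 and 8590 with the short one, above all NP WT libraries. Crabp2 rose from 792 and 1076 to 2259 and 2752 with the long isoform and to 9697 and 11857 with the short one, again above NP WT. In the authors' deposited tables the log2 fold changes were 2.27 (SE 0.27) and 4.88 (SE 0.21) for Crabp1 and 1.43 (SE 0.21) and 3.55 (SE 0.16) for Crabp2.

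The retinol-handling genes and Cyp26a1 fell with both isoforms. Stra6 went from 3037 and 4343 scaled reads in NP KO to 1423 and 1777 (long) and to 1571 and 1833 (short), with log2 fold changes of -1.20 (SE 0.20) and -1.09 (SE 0.17) in the authors' deposited tables. Dhrs3 changed by -0.81 (SE 0.20) and -0.82 (SE 0.18), and Cyp26a1 by -0.59 (SE 0.19) and -0.55 (SE 0.15), in the authors' deposited tables. Rara rose by 0.75 (SE 0.20) and 0.69 (SE 0.18), and Rarg by 0.74 (SE 0.22) and 0.50 (SE 0.19), in the authors' deposited tables. For Rara this led into the NP WT range (1818 to 4235 scaled reads). For Rarg it led further from NP WT (371 to 1047), to 1902 and 1818 scaled reads in KO-L and 1505 and 1612 in KO-S. Rarb was called in KO-S alone, at 0.41 (SE 0.16, adjusted p = 0.0304) in the authors' deposited table, with 5231 and 5496 scaled reads against 3776 and 4373 in KO. Cyp26b1 was called in neither. The neural sum was 9186 to 12391 for KO-L and 13873 to 15354 for KO-S, while KO-L had a pluripotency sum of 17540 to 25638 against 3150 to 3714 in KO-S, whose part was not tested.

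Ordered by mean scaled reads in NP, Crabp1 ran from KO-S (7515) through Deltaex4 (3141), WT (3033), KO-L (1229) and CSex4 (1037) to KO (256). The ranges of Deltaex4 and WT overlapped, and all other neighbours were apart. Crabp2 ran from KO-S (10777) through WT (6073), Deltaex4 (5811), KO-L (2505) and CSex4 (2465) to KO (934), with overlap between WT and Deltaex4 and between KO-L and CSex4. In ESC the order of Crabp1 was KO (912), KO-L (258), WT (200), KO-S3D (151), CSex4 (145), KO-L3D (139), Deltaex4 (133) and KO-S (20.4). KO and KO-S stood apart at the ends and the 6 between overlapped as neighbours. KO was thus the highest ESC group and the lowest NP group for Crabp1, and KO-S the lowest ESC group and the highest NP group.

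Whether an effect differed between cultures was tested on the authors' fold changes (difference over its combined standard error, two-sided normal test, adjusted over all genes with a mean of at least 10 in both tables). The KO effect differed for Crabp1, by -5.63 (SE 0.43, adjusted p = 1.29e-34), and for Crabp2, by -3.16 (SE 0.68, adjusted p = 8.57e-05), NP minus ESC. These were 2 of the 8 genes tested, where 14.3% of all genes passed. Cyp26b1 was too low in ESC to enter. With WT c and d in NP, 4 passed, where 22.4% of all genes did. Of the 7 genes tested, the CSex4 effect differed for Crabp2, by -3.05 (SE 0.67, adjusted p = 0.000494; 5.38% of genes passed), since Crabp2 was higher in ESC CSex4 and lower in NP CSex4 than in WT. The Deltaex4 effect differed for none of the 8 tested (0.0071% of genes passed), and the 95% interval for Crabp1 ran from -0.71 to 2.08.

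**Figure D4:**
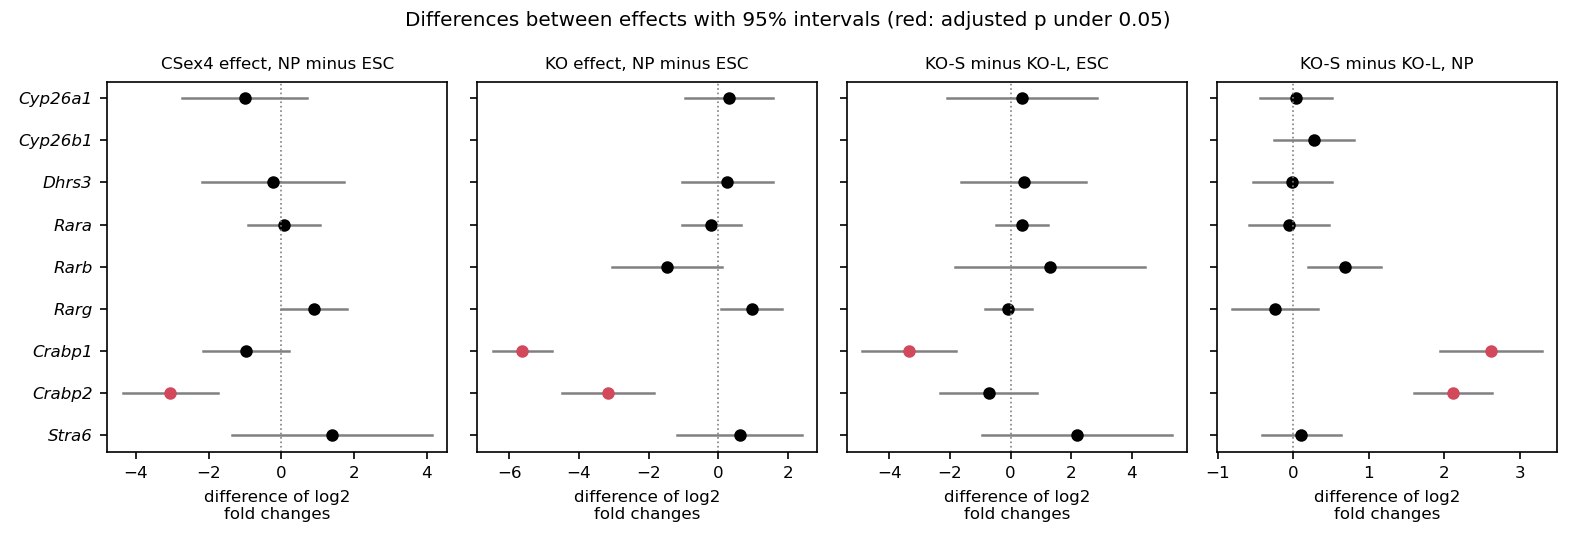
Differences between log2 fold changes with 95% intervals, for the CSex4 and KO effects (NP minus ESC) and for the short against the long isoform in each culture; red points have an adjusted p under 0.05. The red points are Crabp1 and Crabp2 alone, and Cyp26b1 has a point in NP only, being too low in ESC.

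The isoforms differed in the carriers. In NP, KO-S exceeded KO-L by 2.61 (SE 0.34, adjusted p = 6.07e-12) for Crabp1 and by 2.12 (SE 0.26, adjusted p = 2.81e-13) for Crabp2 on the log2 scale, 2 of 9 genes where 10.3% of genes passed. The combined error counts the shared KO libraries as if they were separate. In ESC, KO-S lay below KO-L for Crabp1, by -3.34 (SE 0.78, adjusted p = 0.00149), the 1 of 8 genes tested that passed (4.21% of genes passed). For the other genes in NP no difference passed. The intervals were narrow for Cyp26a1 (-0.44 to 0.51), Stra6 (-0.41 to 0.63) and Dhrs3 (-0.53 to 0.51), while Rarb (difference 0.69, SE 0.25, adjusted p = 0.0526) had an interval from 0.20 to 1.17. KO-L3D and KO-L differed in Rarg, by -1.58 (SE 0.44, adjusted p = 0.0117; 5.37% of genes passed), and KO-S3D and KO-S in none of the 8 tested (0.752% of genes passed). Suz12 RNA was at 1734 and 2684 scaled reads in KO-L3D, inside the range of KO, against 3461 and 3877 in KO-L. The 3D mutation and the level of Suz12 therefore cannot be told apart. Suz12 RNA was also apart from WT in NP CSex4 (ratio of means 1.99), ESC Deltaex4 (0.48), ESC KO-L (0.55), ESC KO-S (0.62) and NP KO-S (0.60). It overlapped WT in ESC CSex4, ESC KO-S3D, NP Deltaex4 and NP KO-L. The part of these levels was not tested.

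Other retinoid genes shifted as well. A list of 13 genes for retinoid uptake, storage and synthesis also held Cyp26c1, of the same family as Cyp26a1 and Cyp26b1. Of the 13, 12 were high enough to test between NP WT and ESC WT. By limma 9 were higher in NP, Cyp26c1 among them, and none lower (34.6% of all genes were higher). The median log2 difference was 2.501. In NP KO against WT a and b, 4 of 13 were called higher and 1 was called lower, where 21.4% of all genes were called. The authors' deposited table has, among the higher, Lrat, which stores retinol as an ester (2.88, SE 0.60), Rdh10, which makes retinaldehyde (2.41, SE 0.34), and the retinaldehyde dehydrogenases Aldh1a1 (1.79, SE 0.46) and Aldh1a2 (1.69, SE 0.49). Against KO, KO-L had 3 called higher and 6 lower, among them Aldh1a1 (-3.98, SE 0.29) and Rbp4 (-3.96, SE 0.22) by the authors' deposited table, and KO-S had 3 higher and 3 lower, where 24.7% and 34.5% of all genes were called. Aldh1a1 went opposite ways, since in KO-S it was at 1.89 (SE 0.18) in the authors' deposited table. In ESC KO, 4 of 13 were called higher and none lower (18.3% of all genes called), led in the authors' deposited table by Aldh1a3 (2.13, SE 0.62).

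Of 12 receptor partners, carriers and cofactors, 5 were higher and 2 lower in NP WT than in ESC WT by limma, with a median of 0.23, where 34.6% of all genes were higher and 30.4% lower. At most 2 of the 12 were called in any deposited table, where the share of all genes called ran from 0% to 34.5%. In ESC KO these were Fabp5 (1.05, SE 0.38) and the RAR partner Rxra (0.77, SE 0.22), and in NP KO the co-repressor Ncor1 (-1.19, SE 0.34), in the authors' deposited tables.

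Of 12 known RAR target genes, all 12 were higher in NP WT than in ESC WT by limma, where 34.6% of all genes were higher. Their median log2 difference was 6.002. In ESC KO 10 of them were called higher and none lower, where 11% of all genes were called higher, and the median of the 12 was 1.92 against 0.01 over all genes tested. The largest in the authors' deposited table were Cdx1 (4.24, SE 0.39), Nr2f2 (4.01, SE 0.87), Nr2f1 (3.78, SE 0.99) and Meis2 (3.21, SE 0.29). In the same comparison Cyp26a1, Rarb and Dhrs3 were not called (the authors' deposited table has 0.15, 1.30 and 0.47). For NP KO against WT a and b, 2 of the 12 were called higher and 3 lower, where 21.4% of all genes were called. The authors' deposited table has Nr2f1 at -3.20 (SE 0.40), Hoxb1 at -2.64 (SE 0.66), Tshz1 at -2.04 (SE 0.33) and Tgm2 at 1.95 (SE 0.32). Both isoforms raised Hoxb1 (2.63 with the long and 4.09 with the short) and Cdx1 (3.90 and 2.45) over NP KO in the authors' deposited tables. Stra8, a germ cell gene, split: it rose in KO-L (2.70, SE 0.90) and fell in KO-S (-2.15, SE 0.69) in the authors' deposited tables.

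For each of the 9 genes, the 1 gene with the most similar pattern was sought by Pearson's r over the 13 log2 fold changes, among 11289 or 11290 genes with a mean of at least 50 in all tables. These were Selenoh for Cyp26a1 (r = 0.84), Mapre3 for Cyp26b1 (0.94), Gdap1l1 for Rara (0.97), Ndrg3 for Rarb (0.86), Isyna1 for Rarg (0.88), Gemin8 for Crabp1 (0.95), Myh10 for Crabp2 (0.94), Pdxdc1 for Stra6 (0.90) and Rxra for Dhrs3 (0.91). The 13 values share libraries, and the best of so many genes is high by selection, so these are descriptions.

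The ChIP-seq of the series enters as 2 lists of regions that the authors' DiffBind run gave at a false discovery rate of 5%, in ESC, 2865 for Suz12 and 6882 for H3K27me3. The files do not say which groups were compared or in which direction, so a region marks only a place on the list. Coordinates are used with GRCm38.p6, the patch release of mm10, a build the submitters' processing notes name. A gene was counted when its body with 2500 bp on either side met a region. An H3K27me3 region lay at 7 of the 9 genes, where 21.1% of all genes placed had one, and a Suz12 region at 3 of the 9, where 11.4% had one. Rara and Rarg, the 2 receptors already expressed in ESC, had neither.

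Cyp26a1 lay under a Suz12 region (chr19:37694853-37700361) and an H3K27me3 region of 18947 bp (chr19:37684973-37703919), ranked 99 of its list by the authors' value. Both hold its start site and the motif pair printed above. Cyp26b1 had a Suz12 region of 9269 bp inside the gene (chr6:84581533-84590801) and 2 H3K27me3 regions, the wider of 12920 bp. Crabp1 had both marks over its start site (Suz12 chr9:54763328-54766557, H3K27me3 chr9:54761196-54768518). Rarb had an H3K27me3 region of 1968 bp (chr14:16573784-16575751) that holds the promoter stretch printed above. Dhrs3 (2646 bp, over a start site), Crabp2 (8665 bp and 1875 bp) and Stra6 (1718 bp) had H3K27me3 regions alone. The Stra6 region ranked 6440 of its list and lay in a gene of 90212 bp. Neither it nor the Cyp26b1 regions held a start site of their gene, and Crabp2 had no start site entry. Of the 7 genes with an H3K27me3 region, 1 (Crabp1) was called in ESC KO, where 18.3% of all genes were.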

How the data were processed

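The authors deposited 13 DESeq2 result tables (DESeq2, TopHat and Bowtie, and builds mm10 and dm3, per the submitters' processing notes, which give no versions; file names call the statistics paired). Per the file headers, their baseMean is a signal, the mean of scaled reads, fold changes are log2, the Wald statistic is a score, and p-values and adjusted p-values follow. The 2 other deposited files list DiffBind regions with an unnamed score-like value, used only to rank regions; the authors' 55 ChIP-seq samples are otherwise not analysed here. The 9 genes and all gene lists were chosen with earlier results of these data known, and the tables' unit differs from counts, so the authors' adjusted p under 0.05 is the call.

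Whole reads of 32 libraries in 60 table places were solved from the baseMean digits (lattice reduction, Python 3.11.15, sympy 1.14.0). Size factors computed from them differed from those in the tables by at most 0.000154 of their value. Dropping any 1 table left the reads of the 9 genes and Suz12 as they were, and in simulated data 99.8% (ESC) and 100% (NP) of genes were found exactly. NP WT was compared with ESC WT in limma 3.58.1 (R 4.3.3) with a trend, on log2 of scaled reads plus 1, for genes with a mean of at least 10. In data simulated for that comparison over 26171 genes, all drawn with the same spread, it found 92% of 4-fold and 20% of 2-fold changes. Named list genes are those called with the largest fold change, up to 4 a list and table. The values of 1 list gene are not reported here. The replicate numbers of recovered libraries are unknown, so whether they pair the samples could not be checked; the block is the authors' own. Alternatives are given with the limits.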

Additional observations from a re-analysis of the deposited data

Results flagged for a closer look

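Of 34 genes (the 9 and the list genes high enough), 4 had an NP WT library far from the other 3, where chance flags about 1 in 20 groups. In each case it was library a, the one with the low neural sum: Crabp1 was low there (2208 scaled reads), Meis2 was low (4307), and Aldh1a2 (1105) and Nrip1 (2884) were high. Separately, 3 effects differed between the cultures by the test of the difference, NP minus ESC on the log2 scale. These were Crabp1 in KO by -5.63, Crabp2 in KO by -3.16 and Crabp2 in CSex4 by -3.05. The last includes an ESC call that limma, run without the replicate block, did not make.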

How the results depend on the processing

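No called value changed direction, and all 9 genes kept their NP WT against ESC WT call under every alternative run (pseudocount 5, other scaling, 2 NP WT libraries, any 1 library left out). Scaling by summed means moved the median of all genes from 0.07 to 0.34. Counts of called genes among the 9 moved as follows. At an adjusted p under 0.01, 0 were called in ESC CSex4, 0 in ESC KO-L and 1 in NP CSex4. Under 0.1, 3 were called in ESC KO-S and 2 in ESC KO-L3D. With no filter on low counts, 0 were called in ESC CSex4. With a log2 change of at least 1, 1 was called in ESC KO, 3 in NP KO-L and 3 in NP KO-S. Limma with no replicate block, which changes test and block at once, called 0 in ESC CSex4, 0 in ESC KO-L, 2 in ESC KO-S, 2 in ESC KO-L3D, 0 in NP CSex4 and 5 in NP KO-S, and made 25 of the authors' 32 calls. With the other NP WT pair, 6 were called in NP KO and 4 in the KO difference between cultures. Of 8 genes with a start site entry, 4 had H3K27me3 within 1000 bp of one (17.1% of all genes). The cause of these moves was not tested. The limma fits between genotypes were added after seeing the data. Leaving out 1 library in turn (limma) gave 0 to 0 in ESC CSex4 and ESC KO-L, 2 to 4 in ESC KO, 0 to 6 in ESC KO-S, 0 to 4 in ESC KO-L3D, 0 to 7 in NP CSex4, 0 to 4 in NP KO, 4 to 9 in NP WT against NP KO, 2 to 8 in NP KO-L and 2 to 7 in NP KO-S. A lone library is assumed to vary like the other group, and the 7 in NP CSex4 rests on the spread of its nearly identical pair alone. The self-test of limma on NP KO against NP WT (26171 genes) found 58% of 4-fold and 2% of 2-fold changes. It drew all genes with the same spread rather than the spread of these libraries, so it does not settle what was detectable here.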
